A study of Mus musculus with 203 samples.

Results

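The interaction of house dust mite (HDM) extract and cigarette smoke (CS) was measured in the lung parenchyma of female Balb/C mice aged 18 to 20 weeks, at week 11 of the exposures. It rests on 40 RNA-seq libraries, which are 19.7% of those of the series and were chosen by their labels alone, with 10 in each of 4 groups. PBS.AIR mice received phosphate buffered saline (PBS) intranasally and breathed normal air. HDM.AIR mice received HDM and air, PBS.CS mice received PBS and smoke, and HDM.CS mice received both. None of these mice were given dexamethasone (DEX), and all 4 groups share strain, sex and age range. Per the labels, HDM was given intranasally on 5 days per week for 3 weeks and 3 times per week from weeks 4 to 11, and smoke 2 times per day on 5 days per week for 8 weeks. No label ties an airway library to the parenchyma library of the same mouse.

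HDM is an allergen source whose proteases and microbial products act on the airway epithelium and drive type 2 inflammation, with eosinophils, mucus and antibody-producing B cells. Cigarette smoke brings oxidants and aryl hydrocarbons that activate NRF2 and the aryl hydrocarbon receptor, and it draws macrophages and neutrophils that release matrix-degrading enzymes. The exposures meet in asthma and chronic obstructive pulmonary disease overlap, which these mice model. The quantity tested was (HDM.CS - PBS.CS) - (HDM.AIR - PBS.AIR) on the log2 scale, called the interaction here. At 0, the fold of HDM is the same in smoke as in air, so the joint effect is the sum of the single log2 effects. A negative interaction means that HDM.CS lay below this additive expectation, and a positive one that it lay above. The effect of HDM alone (HDM.AIR over PBS.AIR), of smoke alone (PBS.CS over PBS.AIR) and of both together (HDM.CS over PBS.AIR) are given as descriptions with no test. Since PBS.AIR enters each of these and the interaction, they are not independent of it.

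Depth ran from 22011630 to 33654831 counts a library, with a median of 27726317. A principal component analysis of the 500 most variable genes separated the HDM groups from the PBS groups on the first component, which held 74.1% of the variance. PBS.AIR and PBS.CS overlapped on it. PBS.AIR libraries scored -55.3 to -20.6, PBS.CS libraries -40.6 to -24.2, HDM.CS libraries 10.3 to 34.8 and HDM.AIR libraries 34.7 to 68.02. Thus HDM.CS lay between PBS.CS and HDM.AIR, and 1 HDM.CS library reached the lowest HDM.AIR one. On the second component (6.34% of the variance) HDM.CS scored -0.17 to 9.84, overlapping with both single exposures, against -11.3 to 1.79 in HDM.AIR and 6.45 to 17.9 in PBS.CS. Library X126 of PBS.AIR, at -20.6 on the first component, stood apart from the other PBS.AIR libraries, of which the next was at -40.4. Library X173, labelled PBS.CS parenchyma, had the lowest TMM scaling factor, 0.887 against 0.984 in the next PBS.CS library, and the highest summed level of the airway tissue markers, 64004 CPM against 21207 to 35302 CPM in the other PBS.CS libraries. Its log2 ratio of alveolar type I to airway tissue markers was -3.08, against -2.01 to -1.14 in the other 9 PBS.CS parenchyma libraries and -3.66 to -2.33 in the 10 PBS.CS airway libraries. By this measure X173 went against its tissue label, and X174, labelled airway, stood at -3.43, within the airway range. Library X90 of HDM.AIR also had a low ratio, -2.82, against -1.84 to -0.85 in the other HDM.AIR parenchyma libraries. HDM.AIR airway libraries ran from -2.98 to -0.999, a range that holds X90 and overlaps with the other parenchyma libraries. X173 and X90 were kept as labelled, and results that rest on X173 are given without it too. Counts per list and the differences between tissues and with DEX were not recomputed without X90. With X90 left out, 95.9% of the genes called with all libraries were called again in the same direction. Without X173 alone 3570 genes were below and 3536 above the additive expectation, and the counts of called members moved by at most 2 in any list. Among the named genes, Cyp1a1 then lost its call and Clca1, not called, changed sign. The cartilage markers Col2a1, Acan, Matn1 and Cnmd, which define large airways, did not pass the filter on low counts in these 40 libraries. Without X126 and X173 together 3520 genes were below and 3523 above the additive expectation, against 3738 and 3466 with them.

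**Figure D1:**
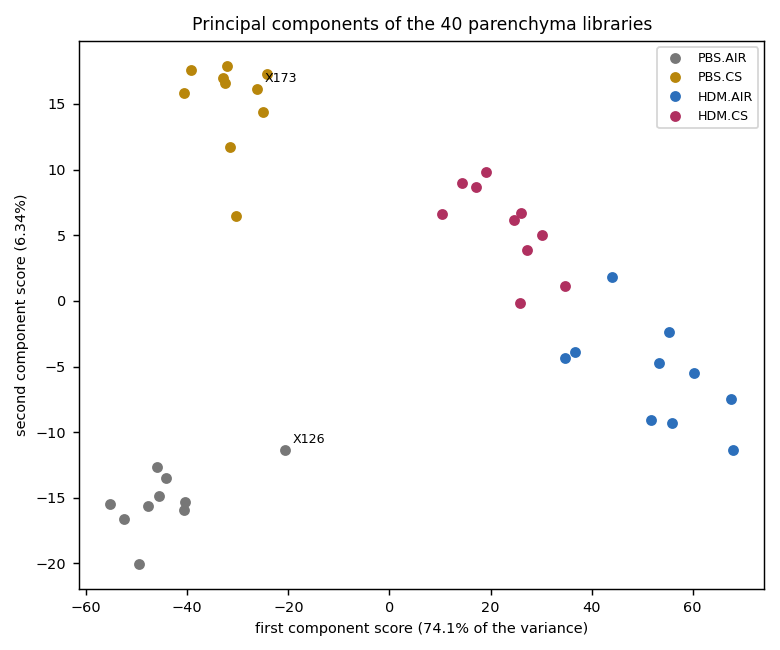
Scores of the 40 parenchyma libraries on the first component (horizontal, 74.1% of the variance) and the second (vertical, 6.34%), 1 point a library, coloured by group, with X126 and X173 named. The HDM.CS points lie between the PBS.CS and HDM.AIR points, with overlap at the edges, and X126 lies apart from the other PBS.AIR points.

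Of 16821 genes tested, 3738 (22.2%) were below the additive expectation and 3466 (20.6%) above it at an adjusted p-value under 0.05. With an absolute log2 interaction of at least 1, 1263 genes (7.51%) were below and 647 (3.85%) above. The median interaction over all tested genes was -0.02, and the medians of HDM alone, smoke alone and both together were 0.0067, 0.0054 and -0.0052. In 3525 of the 3738 genes below expectation (94.3%), HDM alone and smoke alone were both higher than PBS.AIR. Their median log2 effects were 0.81 for HDM, 0.42 for smoke and 0.57 for both together, against a median sum of 1.305. In 3198 of these 3525 genes (90.7%) the joint effect was no larger than the larger single effect, and in 3004 (85.2%) it was smaller than that of HDM alone. Among the 3466 genes above expectation, both single effects were lower than PBS.AIR in 3358 (96.9%), with medians of -0.64 for HDM, -0.31 for smoke and -0.41 for both together. The joint effect was no larger in size than the larger single effect in 3234 of these 3358 genes (96.3%). By the sign of these untested estimates, a negative interaction mostly went with genes higher under each exposure alone and no higher under both. A positive one mostly went with genes lower under each alone and no lower under both. A single effect close to 0 also counts here as higher or lower. Since PBS.AIR enters the single effects and the interaction, choosing genes by the interaction favours such a pattern.

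Genes called above expectation with both single effects higher numbered 1 of 3466. It was Sult5a1, a sulfotransferase gene, named after its values were seen, with an interaction of 0.58 (SE 0.19, adjusted p = 0.0153) and log2 effects of 0.07 for HDM, 0.29 for smoke and 0.94 for both. Conversely, no gene called below expectation had both single effects lower and a joint effect beyond their sum. On unlogged CPM (counts scaled to library size), the excess over the sum of the 2 differences had the opposite sign in 3 of 3738 and 4 of 3466 called genes.

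**Figure D2:**
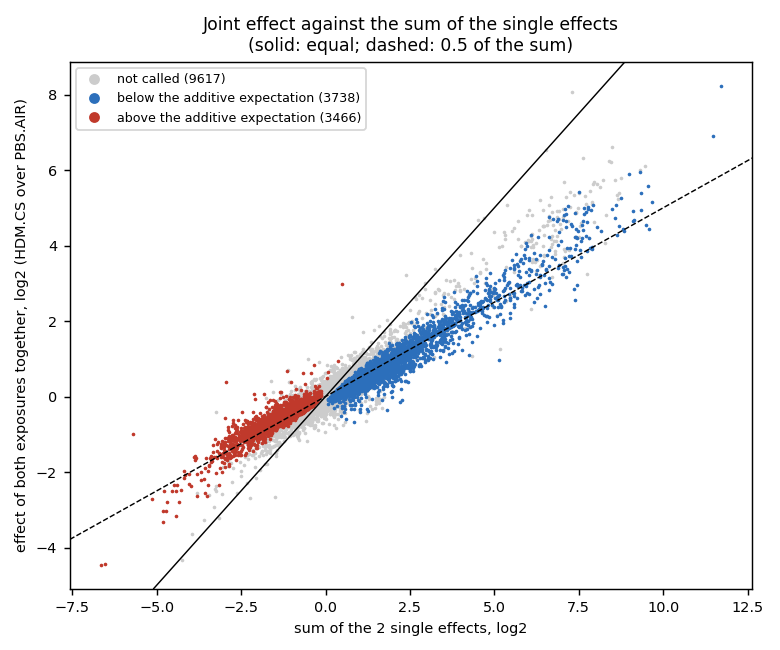
Each of the 16821 tested genes by the sum of its log2 effects of HDM alone and smoke alone (horizontal) and its log2 effect of both exposures (vertical), each against PBS.AIR. Genes below the additive expectation (blue, 3738) lie under the solid line of equality on the right and genes above it (red, 3466) over that line on the left, near the dashed line where the joint effect is 0.5 of the sum.

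Genes with an absolute interaction of at least 1 took several shapes. In 570 of the 1910, each exposure alone was higher by a log2 of at least 1, with medians of 2.28 for HDM, 1.501 for smoke and 1.98 for both. In 226 genes HDM alone was at least 1 higher while smoke alone was within 0.5 of PBS.AIR, and HDM.CS less HDM.AIR then gave a median of -1.17. A further 8.43% of the 1910 were at least 1 lower in HDM alone with smoke alone within 0.5, and in these smoke added to HDM gave a median of 0.78. Only 7 genes were at least 1 higher with smoke alone while HDM alone was within 0.5. Of the remaining genes, 79 were at least 1 lower under either exposure, 1 was so under smoke alone with HDM alone within 0.5, and 460 below and 406 above expectation met none of these limits.

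Values are given as the lowest, median and highest CPM of the 10 libraries of a group, and interactions as log2 with the standard error (SE) and limma's adjusted p. The smallest p-value belonged to Slc6a20a, a sodium-dependent imino acid transporter at chr9:123634770-123678885. Its level was 5.35, 5.64 and 8.61 CPM in PBS.AIR, 28.4, 34.4 and 39.4 in PBS.CS, 25.8, 29.1 and 36.1 in HDM.AIR, and 18.6, 25.4 and 33.5 in HDM.CS. PBS.AIR lay apart from the other 3 groups, which overlapped with each other, and the interaction was -2.66 (SE 0.13, adjusted p = 2.80e-18). On the unlogged scale the excess of HDM.CS over the sum of the 2 differences was -31.03 CPM. Vnn1, the pantetheinase that recycles vitamin B5 (chr10:23894688-23905343), was 3.10, 4.17 and 17.2 CPM in PBS.AIR, 66.4, 133.5 and 162.5 in PBS.CS, 61.2, 74.8 and 109.3 in HDM.AIR, and 69.8, 104.5 and 141.9 in HDM.CS. Again only PBS.AIR was low, with library X126 at its top, and the interaction of -4.37 (SE 0.27, adjusted p = 3.94e-15) became -4.57 without that library. C3, the central complement component (chr17:57203970-57228136), was 258, 286 and 383 CPM in PBS.AIR, 711, 999.7 and 1165 in PBS.CS, 1068, 1456 and 1808 in HDM.AIR, and 900.3, 1044 and 1262 in HDM.CS. The highest level was in HDM.AIR, HDM.CS overlapped with PBS.CS, and the interaction was -2.12 (SE 0.14, adjusted p = 8.31e-15).

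**Figure D3:**
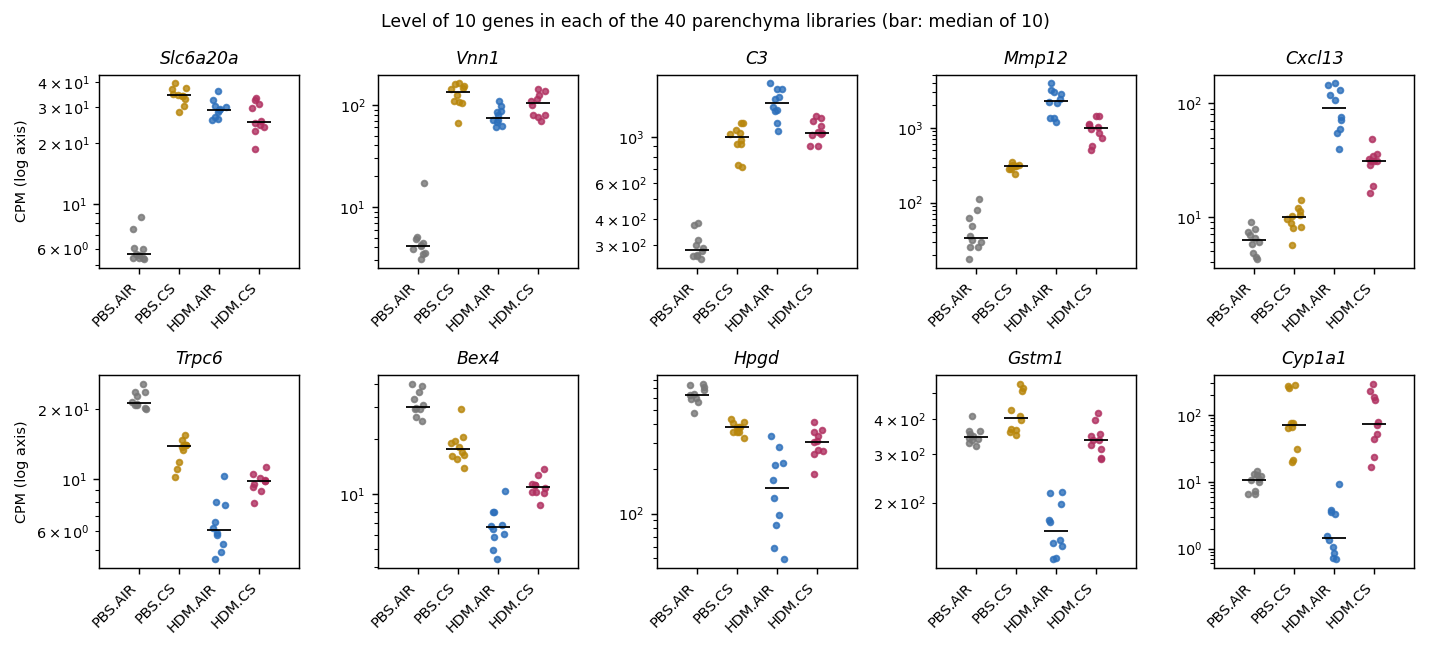
CPM on a log axis of 10 genes in each of the 40 libraries, 1 point a library and a bar at the median of each group. In Slc6a20a, Vnn1 and C3 only PBS.AIR is low, in Mmp12 and Cxcl13 HDM.CS lies between PBS.CS and HDM.AIR, in Trpc6, Bex4, Hpgd and Gstm1 HDM.AIR has the lowest median, and Cyp1a1 is low in HDM.AIR and high in both smoke groups.

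Pigr, the receptor that carries polymeric antibodies across epithelium (chr1:130826684-130852249), was 49.9, 88.2 and 217 CPM in PBS.AIR, 519.9, 848 and 1093 in PBS.CS, 1128, 1378 and 1691 in HDM.AIR, and 866, 1215 and 1367 in HDM.CS. All HDM and smoke libraries exceeded all PBS.AIR libraries, and the interaction was -3.48 (SE 0.25, adjusted p = 1.27e-13). Lemd1, which encodes a LEM domain protein, was 0.125, 0.371 and 1.80 CPM in PBS.AIR, 6.57, 9.86 and 12.5 in PBS.CS, 8.22, 9.42 and 13.03 in HDM.AIR, and 9.76, 13.6 and 14.4 in HDM.CS. Its log2 effects were 4.59 for HDM, 4.53 for smoke and 4.90 for both, with an interaction of -4.21 (SE 0.28, adjusted p = 1.28e-14). The remaining genes among the 8 smallest p-values below expectation were Cd83, a marker of activated dendritic cells, Ms4a7, a membrane protein of macrophages, and Zranb3, a DNA fork remodelling enzyme. Their interactions were -1.79 (adjusted p = 2.17e-13), -2.80 (adjusted p = 2.35e-13) and -3.25 (adjusted p = 2.48e-13). In Ms4a7 smoke added to HDM was lower, at -0.62, while in Zranb3 HDM.AIR and HDM.CS overlapped. The largest negative interactions were in Rph3a, Acod1, Alpk2 and Awat1. Rph3a, an effector of vesicle release, had at most 0.182 CPM in PBS.AIR and medians of 2.15, 2.19 and 1.68 CPM in PBS.CS, HDM.AIR and HDM.CS, with an interaction of -5.14 (SE 0.55, adjusted p = 1.10e-09). The alpha kinase gene Alpk2 gave -4.94 (adjusted p = 4.18e-08) and Awat1, an acyltransferase that makes wax esters, -4.56 (adjusted p = 0.00103). In Acod1, the enzyme that makes itaconate in activated macrophages, the level was 0.689, 2.10 and 4.70 CPM in PBS.AIR, 2.44, 9.52 and 17.998 in PBS.CS, 23.4, 68.9 and 183.1 in HDM.AIR, and 3.13, 11.9 and 44.3 in HDM.CS. HDM.AIR stood above PBS.AIR and PBS.CS, HDM.CS less HDM.AIR was -2.73, and the interaction was -4.85 (SE 0.75, adjusted p = 1.58e-06).

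After acute phase genes, the most negative list medians were those of lipid-laden macrophages and of monocyte chemokines. The list of lipid-laden macrophage and emphysema genes had 20 of 24 members below expectation and 1 above, with a median interaction of -1.91, against 22.2%, 20.6% and -0.02 over all genes tested. These shares over all genes are the background for each later count of list members in parenchyma without DEX. Median log2 effects over the list were 2.38 for HDM, 1.76 for smoke and 2.07 for both. Mmp12, the macrophage elastase whose loss protects mice from smoke-induced emphysema (chr9:7344381-7369499), was 17.8, 33.9 and 112.8 CPM in PBS.AIR, 239, 309 and 345 in PBS.CS, 1198, 2292 and 3915 in HDM.AIR, and 503, 999.6 and 1445 in HDM.CS. The 4 groups did not overlap except HDM.CS with HDM.AIR, so the median was lower with smoke than without in HDM mice and higher with smoke in PBS mice, and the interaction was -4.17 (SE 0.37, adjusted p = 1.22e-11). Gpnmb, a glycoprotein of lipid-loaded macrophages, was 27.4, 36.4 and 88.6 CPM in PBS.AIR, 235, 366 and 463 in PBS.CS, 179.7, 381 and 883 in HDM.AIR, and 427, 579 and 655 in HDM.CS. Smoke and HDM each brought it to like levels, HDM.CS was slightly higher still (0.53 against HDM.AIR), and the interaction was -2.72 (SE 0.25, adjusted p = 4.48e-11). Ctsk, a collagen-degrading cathepsin, had the same order of group medians, with -2.76 (SE 0.21, adjusted p = 6.71e-13). Cd36, the fatty acid scavenger receptor that endothelium also carries, was the member above expectation, at 0.74 (SE 0.11, adjusted p = 1.89e-06), and was lowest in HDM.AIR.

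The chemokines that call in monocytes, with their receptors, had 15 of 16 members below and 1 above, with a median interaction of -1.83. Ccl9, a chemokine for CCR1-bearing myeloid cells, was 17.5, 32.3 and 51.02 CPM in PBS.AIR, 141.004, 197.8 and 388 in PBS.CS, 204.8, 429.5 and 738 in HDM.AIR, and 168.6, 259.5 and 412 in HDM.CS. HDM.CS overlapped with both single exposures and its median lay between them, with -3.49 (SE 0.30, adjusted p = 6.97e-12). Cx3cl1, the membrane-bound ligand of CX3CR1, was the member above expectation, at 0.43 (adjusted p = 0.00785), and its median was 47.4 CPM in PBS.AIR, 46.8 in PBS.CS, 23.2 in HDM.AIR and 29.4 in HDM.CS. Resident alveolar macrophage genes were mixed, with 8 of 16 below, 2 above and a median of -0.43, against 22.2%, 20.6% and -0.02 over all genes. In that list Itgax, the CD11c integrin chain, had an interaction of -2.10 (SE 0.19, adjusted p = 3.13e-11), and Cidec, a lipid droplet protein, had 1.56 (SE 0.33, adjusted p = 1.97e-04) with medians of 14.1 CPM in PBS.AIR and 2.87, 3.60 and 2.23 CPM in PBS.CS, HDM.AIR and HDM.CS. Cidec also stands in the list of adipose markers and was the only member above expectation there. For alternatively activated macrophages and chitinases, 7 of 17 were below and 1 above, with a median of -0.68. Chil1, a chitinase-like protein without enzyme activity, was 472, 642 and 928 CPM in PBS.AIR, 1710.3, 2664 and 3144 in PBS.CS, 2006, 2717 and 3558 in HDM.AIR, and 1842, 2533 and 3169 in HDM.CS. Only PBS.AIR was apart, and the interaction was -2.09 (SE 0.17, adjusted p = 3.05e-12).

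Spi1 encodes PU.1, the transcription factor that sets the myeloid lineage, and was 20.5, 29.2 and 35.03 CPM in PBS.AIR, 42.6, 64.1 and 69.97 in PBS.CS, 52.7, 73.9 and 113.1 in HDM.AIR, and 36.4, 63.5 and 76.99 in HDM.CS. All 3 exposed groups exceeded PBS.AIR and overlapped with each other, with an interaction of -1.39 (SE 0.17, adjusted p = 3.68e-08). Il1rn, the antagonist of interleukin 1, had -2.90 (SE 0.31, adjusted p = 7.67e-10), and Ptafr, the receptor of platelet-activating factor, had -2.45 (SE 0.26, adjusted p = 9.70e-10). Clec7a, the beta-glucan receptor dectin 1, was 121.1, 131.8 and 175.2 CPM in PBS.AIR, 244, 342 and 565 in PBS.CS, 632, 1003 and 1524 in HDM.AIR, and 415, 579 and 789 in HDM.CS. HDM.AIR was highest, smoke added to HDM gave -0.75, and the interaction was -2.10 (SE 0.19, adjusted p = 2.11e-11). Over the list of myeloid factors and genes downstream of Spi1, 9 of 13 were below expectation and 0 above, with a median of -1.11. Il1rn, Ptafr, Itgax and Clec7a were picked by the study from other libraries of this series, so their count is not independent evidence of a direction. In bulk tissue, fewer cells of a type and less RNA per cell cannot be told apart.

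The letters GAGGAAGT, which hold the GGAA core of PU.1 sites, were sought on both strands in RefSeq promoters of 300 bases (GRCm38.p6, from 250 bases before to 50 after a start site). They were in 3.25% of 15429 promoters of tested genes and 3.2% of all 32851 promoters. The share was 5.51% of 3542 promoters of genes below expectation, 7.43% of 1076 with an interaction of at most -1, 2.37% of 3382 of genes above and 1.46% of 547 with an interaction of at least 1. The kB-like letters GGGANNTTC were in 5.39% and 5.3% of the promoters with an interaction of at most -1 and at least 1, against 3.72% of those of tested genes. TGACNNNGC, which resembles the element bound by NRF2, was in 13.9% and 11.9% against 14.3%, and the TATA box TATAAA in 12.7% and 11.2% against 7.95%. These are counts of letters with no test, and the sites were not measured. Of the 87 genes named by rule, 68 had a promoter in the table. Of the genes searched, those with GAGGAAGT were Mmp12, Aim2, Havcr2 and S100a8, each below expectation. The promoters that hold it are shown with the match in capitals, which reads ACTTCCTC where it lies on the other strand. All 4 genes lie on the + strand. The positions are chr9:7344147-7344446 for Mmp12, chr1:173420354-173420653 for Aim2, chr11:46454681-46454980 for Havcr2 and chr3:90668821-90669120 for S100a8. Mmp12 has another promoter, at chr9:7347124-7347423, which does not hold GAGGAAGT on either strand.
Mmp12: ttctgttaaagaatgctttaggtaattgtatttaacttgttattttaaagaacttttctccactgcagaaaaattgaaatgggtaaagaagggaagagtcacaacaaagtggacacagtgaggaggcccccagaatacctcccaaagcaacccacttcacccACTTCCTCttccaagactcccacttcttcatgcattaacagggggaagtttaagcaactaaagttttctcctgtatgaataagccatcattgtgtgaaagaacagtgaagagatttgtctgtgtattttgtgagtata
Aim2: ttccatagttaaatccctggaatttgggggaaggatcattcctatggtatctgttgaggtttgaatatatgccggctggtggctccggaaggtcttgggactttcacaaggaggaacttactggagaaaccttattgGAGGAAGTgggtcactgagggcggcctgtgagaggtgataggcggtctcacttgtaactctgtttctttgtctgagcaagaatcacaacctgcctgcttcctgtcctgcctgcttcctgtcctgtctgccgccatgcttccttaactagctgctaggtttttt
Havcr2: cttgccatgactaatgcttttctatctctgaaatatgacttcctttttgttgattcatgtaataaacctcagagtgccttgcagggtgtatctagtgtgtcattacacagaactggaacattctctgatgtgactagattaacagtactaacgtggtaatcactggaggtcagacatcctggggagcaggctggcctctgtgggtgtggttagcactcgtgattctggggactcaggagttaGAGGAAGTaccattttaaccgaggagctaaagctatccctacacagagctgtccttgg
S100a8: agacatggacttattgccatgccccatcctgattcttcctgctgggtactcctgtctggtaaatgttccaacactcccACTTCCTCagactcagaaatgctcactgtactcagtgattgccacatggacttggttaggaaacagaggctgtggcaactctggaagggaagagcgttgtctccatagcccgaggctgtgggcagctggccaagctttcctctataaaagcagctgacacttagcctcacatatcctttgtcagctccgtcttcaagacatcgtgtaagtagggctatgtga

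Neutrophil genes had like medians under smoke alone and HDM alone. The list of neutrophil chemokines and granule genes had 17 of 21 below and 0 above, and median log2 effects of 1.61 for HDM, 1.50 for smoke and 1.52 for both. Lcn2, the iron-scavenging lipocalin, was 41.2, 98.2 and 271 CPM in PBS.AIR, 701, 1554 and 1757 in PBS.CS, 1121, 1875 and 3039 in HDM.AIR, and 949, 1652 and 2205 in HDM.CS. PBS.AIR lay below all other libraries, which overlapped, and the interaction was -3.89 (SE 0.38, adjusted p = 1.60e-10). S100a8, a calcium-binding granule protein whose promoter is printed above, was 28.4, 45.7 and 139.8 CPM in PBS.AIR, 65.5, 114.4 and 163.1 in PBS.CS, 63.6, 181.8 and 304 in HDM.AIR, and 78.4, 120.3 and 188.7 in HDM.CS. Here PBS.AIR overlapped with each other group, and the interaction was -1.55 (SE 0.36, adjusted p = 5.45e-04). Among acute phase and epithelial alarm genes, 18 of 20 were below and 0 above, with a median of -1.98, the most negative of all function lists. Complement had 12 of 17 below, led by C3.

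Goblet cell mucus genes had 9 of 15 below and 0 above, against 22.2% and 20.6% over all genes. Slc26a4, the anion exchanger pendrin (chr12:31519827-31559969), was 4.85, 6.98 and 12.9 CPM in PBS.AIR, 55.9, 99.3 and 139.2 in PBS.CS, 68.2, 143.6 and 225 in HDM.AIR, and 70.9, 98.4 and 183.7 in HDM.CS. Either exposure gave a median at least as high as both together, with -3.92 (SE 0.32, adjusted p = 1.88e-12). Muc5ac, the main inducible airway mucin, was 0.581, 1.09 and 2.21 CPM in PBS.AIR, 2.05, 2.53 and 3.65 in PBS.CS, 4.18, 8.43 and 29.5 in HDM.AIR, and 2.85, 6.19 and 16.1 in HDM.CS. HDM.CS overlapped with both HDM.AIR and PBS.CS, and the interaction was -1.70 (SE 0.57, adjusted p = 0.0150). Clca1, a goblet cell protein, was 1.02, 3.76 and 19.4 CPM in PBS.AIR, 0.163, 0.931 and 3.56 in PBS.CS, 18.7, 107.98 and 463 in HDM.AIR, and 1.30, 11.4 and 104.5 in HDM.CS. Its interaction was not called, at -0.011 (SE 1.66, adjusted p = 0.997), and the effect of HDM was 4.39 in air and 4.38 in smoke. Smoke alone and smoke added to HDM gave -2.66 and -2.67.

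Of the type 2 cytokines, alarmins and receptors, 7 of 17 were below and 2 above, against 22.2% and 20.6% over all genes, and Il5 and Il13 were too low to test, at no more than 0.543 and 0.984 CPM in any library. Il4 was also low, with medians of 0.386 to 0.492 CPM in PBS.AIR and HDM.AIR, and its interaction was -0.35 (SE 0.52, adjusted p = 0.615). Ccl22, a chemokine of dendritic cells for CCR4-bearing T cells, was 3.10, 4.97 and 8.86 CPM in PBS.AIR, 20.005, 29.2 and 39.7 in PBS.CS, 21.7, 39.8 and 74.6 in HDM.AIR, and 16.1, 19.9 and 34.8 in HDM.CS. HDM.CS was below HDM.AIR in the median, at -0.87, and the interaction was -3.39 (SE 0.30, adjusted p = 1.19e-11). Tslp, an epithelial alarmin, was above expectation at 1.16 (SE 0.20, adjusted p = 7.58e-06), being lowest in HDM.AIR. Eosinophil genes had 2 of 12 below and 1 above of those tested, shares under those over all genes. Ccl11, the eotaxin, was 0.783, 1.29 and 2.86 CPM in PBS.AIR, 1.70, 2.49 and 3.28 in PBS.CS, 2.79, 13.7 and 38.002 in HDM.AIR, and 3.99, 9.34 and 32.3 in HDM.CS. HDM.AIR and HDM.CS overlapped, and the interaction was -0.93 (SE 0.75, adjusted p = 0.329). Siglecf, a lectin of eosinophils and alveolar macrophages, had -0.58 (adjusted p = 0.00790) and Ear1, an eosinophil-associated ribonuclease, 1.05 (adjusted p = 7.69e-04). The ribonuclease belongs to a family of near-identical copies, so its level is uncertain.

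In the T cell and B cell lists the median effect of smoke alone was near 0. The T cell list had 20 of 27 below and 0 above, with median log2 effects of 1.67 for HDM, 0.056 for smoke and 1.05 for both, and 27 of its 27 members were lower in HDM.CS than in HDM.AIR. With all 160 libraries of 11 weeks in the fit, 10 of the 27 were below. Its summed level was 158.4 to 214 CPM in PBS.AIR, 136.98 to 255 in PBS.CS, 371 to 756 in HDM.AIR and 284 to 362 in HDM.CS. HDM.CS thus lay above both PBS groups and below every HDM.AIR library. Havcr2, the checkpoint receptor TIM-3 that myeloid cells also carry, had the smallest p of the list, with -1.36 (SE 0.12, adjusted p = 2.46e-11), and its median was 33.5 CPM in PBS.CS against 13.7 in PBS.AIR.

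The B cell and plasma cell list had 21 of 29 below and 0 above, with a median of -1.23. Its summed level, most of it from antibody genes, was 824 to 1883 CPM in PBS.AIR, 868 to 1419 in PBS.CS, 12446 to 55658 in HDM.AIR and 3968 to 12243 in HDM.CS. No HDM.CS library reached the lowest HDM.AIR library. Antibody genes have close copies that share reads, so single ones are uncertain. Cd22, a lectin that damps B cell receptor signals, was 20.8, 28.02 and 33.7 CPM in PBS.AIR, 36.6, 44.9 and 50.5 in PBS.CS, 75.6, 92.9 and 124.6 in HDM.AIR, and 61.2, 75.8 and 86.2 in HDM.CS. The interaction was -1.10 (SE 0.13, adjusted p = 1.08e-08). Cxcl13, the chemokine that gathers B cells into follicles (chr5:95956951-95961068), was 4.25, 6.28 and 9.06 CPM in PBS.AIR, 5.60, 9.91 and 13.97 in PBS.CS, 39.7, 91.6 and 150.5 in HDM.AIR, and 16.1, 30.8 and 48.7 in HDM.CS. Smoke alone gave 0.63 and smoke added to HDM -1.56, and the interaction was -2.20 (SE 0.35, adjusted p = 2.31e-06). Of the lymphoid tissue chemokines and lymphotoxins, 13 of 17 were below and 0 above. Ccl20, the ligand of CCR6 that also belongs to the IL-17 list, was 0.940, 1.62 and 2.52 CPM in PBS.AIR, 8.999, 14.2 and 19.1 in PBS.CS, 7.27, 17.5 and 28.5 in HDM.AIR, and 8.59, 10.3 and 15.7 in HDM.CS, with -3.62 (SE 0.38, adjusted p = 6.66e-10).

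MHC class II and dendritic cell genes had 17 of 21 below and 1 above. Cd86, the costimulatory ligand of CD28, was 4.40, 6.47 and 8.82 CPM in PBS.AIR, 12.9, 16.5 and 17.4 in PBS.CS, 19.9, 27.2 and 35.5 in HDM.AIR, and 13.8, 16.6 and 19.6 in HDM.CS. HDM.CS and PBS.CS had like levels, below every HDM.AIR library, and the interaction was -1.90 (SE 0.15, adjusted p = 6.71e-13). Zbtb46, a factor of classical dendritic cells that endothelium also expresses, was above at 0.74 (SE 0.14, adjusted p = 4.67e-05). Genes of the IL-17 and IL-21 axis were below in 11 of 16, those of the IL-1 family and inflammasome in 11 of 14 and those of the CXCR3 axis and interferon in 13 of 20, with none above in these 3 lists. Aim2, the cytosolic DNA sensor, was 8.06, 9.20 and 11.2 CPM in PBS.AIR, 11.2, 14.8 and 17.1 in PBS.CS, 24.3, 26.3 and 33.8 in HDM.AIR, and 18.1, 20.6 and 24.2 in HDM.CS. HDM.CS lay above PBS.CS and just below every HDM.AIR library, and the interaction was -1.06 (SE 0.10, adjusted p = 1.61e-10). Il12b, the shared subunit of IL-12 and IL-23, gave -2.62 (SE 0.37, adjusted p = 2.80e-07). Cytotoxic lymphocyte genes were lower in smoke than in air, with a list median of -1.44 for smoke alone and -1.25 for smoke added to HDM. They gave 1 of 14 below and 2 above, shares under the 22.2% and 20.6% over all genes. Xcl1, a chemokine of cytotoxic cells for cross-presenting dendritic cells, was below at -1.41 (SE 0.43, adjusted p = 0.00803), and Gzma, a granule protease, above at 1.01 (SE 0.33, adjusted p = 0.0132).

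Cell cycle genes were below expectation in all 26 of 26 tested, the highest share of any list, with interactions from -2.08 to -0.38 and a median of -1.47. Median log2 effects were 1.33 for HDM, 0.80 for smoke and 0.65 for both, so both together gave a smaller median than either alone. Cdca8, a chromosomal passenger protein of mitosis, was 1.22, 2.01 and 2.70 CPM in PBS.AIR, 2.86, 4.47 and 5.73 in PBS.CS, 5.51, 6.74 and 10.5 in HDM.AIR, and 2.99, 3.79 and 6.17 in HDM.CS. HDM.CS overlapped with PBS.CS and HDM.AIR, smoke added to HDM gave -0.97, and the interaction was -2.08 (SE 0.22, adjusted p = 1.19e-09). The summed level of the list was 191.9 to 321 CPM in PBS.AIR, 282 to 393 in PBS.CS, 396 to 722 in HDM.AIR and 291 to 424 in HDM.CS. The cell type that carries these transcripts was not tested.

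**Figure D4:**
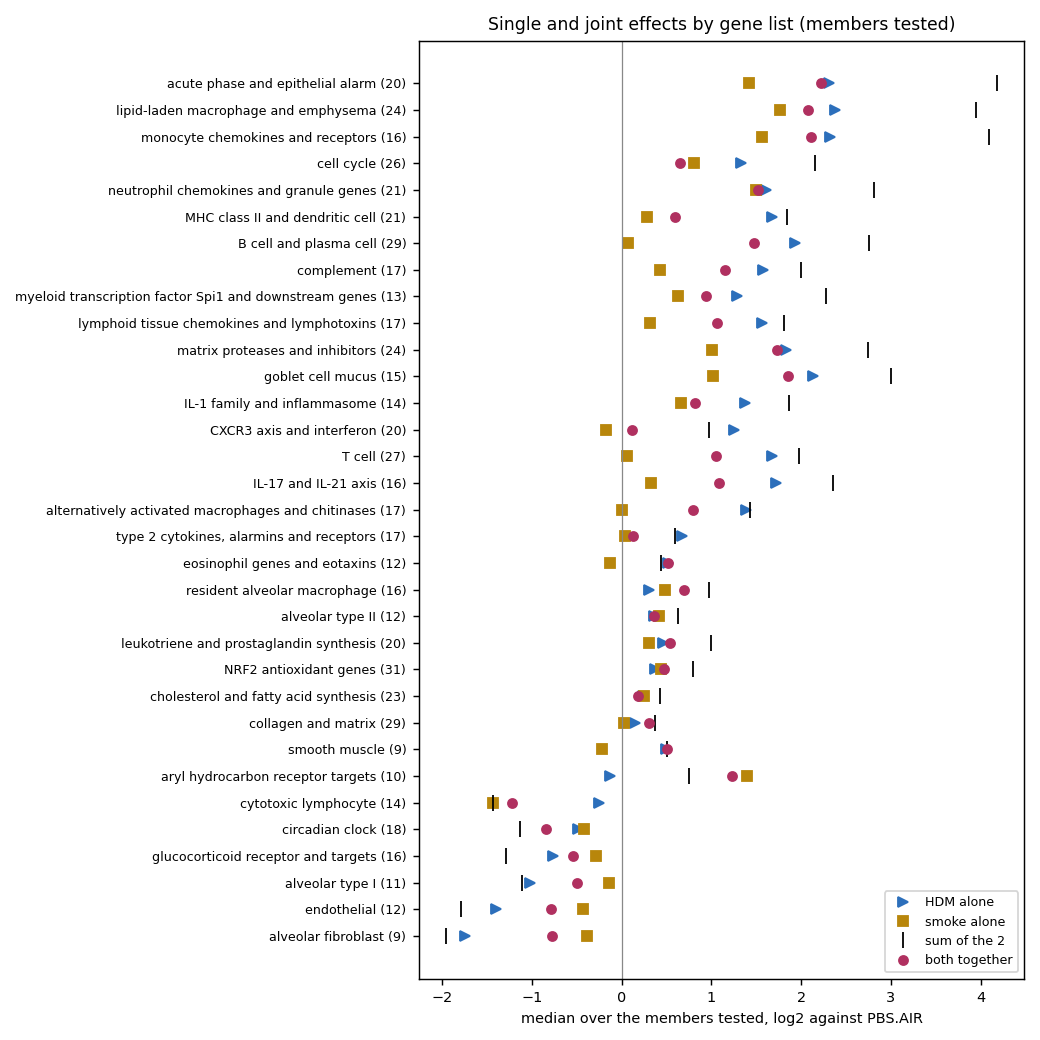
Median log2 effect against PBS.AIR over the tested members of each gene list for HDM alone, smoke alone, the sum of these effects per gene and both exposures, with the number of members tested. In the 3 lists at the top the joint median is close to that of HDM alone and far below the sum, and in the 3 at the bottom it lies between smoke alone and HDM alone.

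Smoke-response genes were held in a pair of lists. Of the NRF2 antioxidant genes, 17 of 31 were below and 4 above, against 22.2% and 20.6% over all genes. Slc7a11, the cystine importer that feeds glutathione synthesis, was 2.65, 4.54 and 7.83 CPM in PBS.AIR, 17.1, 32.6 and 41.6 in PBS.CS, 54.3, 111.3 and 159.01 in HDM.AIR, and 37.9, 61.2 and 93.3 in HDM.CS. HDM.AIR was the highest group, and the interaction was -3.44 (SE 0.35, adjusted p = 2.99e-10). Gstm1, a glutathione transferase (chr3:108012255-108017973), was 319.9, 345 and 411 CPM in PBS.AIR, 350.5, 406 and 539 in PBS.CS, 125.0004, 158.2 and 219 in HDM.AIR, and 289, 336 and 424 in HDM.CS. The effect of HDM was -1.11 in air and -0.31 in smoke, and HDM.CS overlapped with PBS.AIR and lay above every HDM.AIR library, with 0.80 (SE 0.14, adjusted p = 1.05e-05). Nqo1, the quinone reductase that is a classical NRF2 target, was 3.82, 4.70 and 6.26 CPM in PBS.AIR, 7.71, 17.1 and 53.5 in PBS.CS, 2.42, 3.47 and 3.77 in HDM.AIR, and 5.96, 17.04 and 34.2 in HDM.CS. The smoke groups overlapped with each other at higher levels than the air groups, save that the lowest HDM.CS library lay within PBS.AIR, and the interaction was not called, at 0.32 (SE 0.52, adjusted p = 0.640).

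Aryl hydrocarbon receptor targets had 2 of 10 below and 3 above, shares near the 22.2% and 20.6% over all genes. Cyp1a1, the receptor's best known target and an enzyme that oxidizes aryl hydrocarbons (chr9:57687928-57703824), was 6.47, 10.8 and 14.4 CPM in PBS.AIR, 19.9, 71.8 and 283 in PBS.CS, 0.697, 1.44 and 9.17 in HDM.AIR, and 16.9, 74.1 and 295 in HDM.CS. Only the highest HDM.AIR library, X50, reached PBS.AIR, and both smoke groups lay above PBS.AIR and spanned like ranges. The interaction was 2.51 (SE 1.02, adjusted p = 0.0443), but the call was lost in 21 of the 40 fits that left out 1 library, those without X6, X26, X46, X86 or X186 of PBS.AIR, X10, X30, X70, X90, X110, X150 or X190 of HDM.AIR, X34, X74, X94, X114 or X173 of PBS.CS and X138, X158, X178 or X198 of HDM.CS, with values of 2.30 to 2.76 over all 40. Cyp1b1, another target, was below at -1.54 (SE 0.23, adjusted p = 7.23e-07) with a smoke effect of 2.43, an HDM effect of 1.81 and a joint effect of 2.70, and Arnt, the receptor's partner, was above at 0.34 (adjusted p = 7.62e-04). The receptor's core letters GCGTG were in 47.1% of promoters of tested genes, 34.1% of those with an interaction of at most -1 and 42.4% of those with one of at least 1. The Cyp1a1 promoter at chr9:57697363-57697662, + strand, is shown with its match, which starts at -54, in capitals.
Cyp1a1: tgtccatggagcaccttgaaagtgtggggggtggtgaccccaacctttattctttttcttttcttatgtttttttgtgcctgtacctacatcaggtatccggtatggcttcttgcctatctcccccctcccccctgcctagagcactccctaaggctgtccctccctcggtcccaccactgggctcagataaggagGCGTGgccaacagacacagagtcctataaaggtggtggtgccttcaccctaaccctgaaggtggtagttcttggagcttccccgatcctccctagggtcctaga

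Genes above expectation were low in HDM.AIR. All 8 genes with the smallest p-values above were lower in HDM.AIR than in any other group by the median. Trpc6, a cation channel gated by diacylglycerol (chr9:8544142-8680741), was 19.998, 21.2 and 25.7 CPM in PBS.AIR, 10.3, 13.9 and 15.6 in PBS.CS, 4.56, 6.05 and 10.3 in HDM.AIR, and 7.92, 9.82 and 11.3 in HDM.CS. PBS.AIR lay above and HDM.AIR mostly below the smoke groups, and the interaction was 1.35 (SE 0.13, adjusted p = 1.10e-10). Reck, a membrane-anchored inhibitor of matrix metalloproteinases, was 50.9, 55.6 and 64.3 CPM in PBS.AIR, 24.1, 34.1 and 38.7 in PBS.CS, 13.6, 15.4 and 24.2 in HDM.AIR, and 19.7, 25.9 and 33.7 in HDM.CS. The effect of HDM was -1.69 in air and -0.38 in smoke, with 1.31 (SE 0.14, adjusted p = 2.47e-09). Bex4, a small brain-expressed X-linked protein, was 25.2, 30.2 and 40.3 CPM in PBS.AIR, 14.02, 17.6 and 29.3 in PBS.CS, 4.43, 6.61 and 10.4 in HDM.AIR, and 8.73, 11.01 and 13.7 in HDM.CS. Its interaction was 1.52 (SE 0.17, adjusted p = 2.68e-09), and 1.61 without library X173, which was its highest PBS.CS library. The others were Rbbp9, a serine hydrolase, Wscd1, a sulfotransferase, Ankrd29, an ankyrin repeat protein, Efemp1, the matrix protein fibulin 3, and Colgalt2, a collagen galactosyltransferase. Their interactions were 0.61 (adjusted p = 1.04e-09), 1.37 (adjusted p = 1.36e-09), 1.15 (adjusted p = 1.84e-09), 1.06 (adjusted p = 2.67e-09) and 1.49 (adjusted p = 2.74e-09).

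The largest positive interactions were in Gm28439, Cyp1a1, Ccdc42 and Cyp4a12b. Ccdc42, a coiled-coil protein of spermatids and cilia, was 1.15, 1.52 and 2.07 CPM in PBS.AIR, 1.18, 1.64 and 2.80 in PBS.CS, 0, 0.193 and 0.594 in HDM.AIR, and 0.341, 1.18 and 1.78 in HDM.CS. Only HDM.AIR was apart in its median, and the interaction was 2.40 (SE 0.44, adjusted p = 2.82e-05). Cyp4a12b, a fatty acid hydroxylase with a near-identical neighbour, gave 3.32 (adjusted p = 4.03e-04). Gm28439 is annotated as an unprocessed pseudogene at chr1:24611535-24612410 and ranged from 1.65 to 321 CPM within PBS.CS alone, with an interaction of 4.71 (adjusted p = 0.00152). Both are uncertain, since the counting shares out reads between copies.

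Markers of alveolar fibroblasts, endothelium and alveolar type I cells were nearly all above expectation. Alveolar fibroblast genes gave 9 of 9, with a median interaction of 1.18, and median log2 effects of -1.74 for HDM, -0.39 for smoke and -0.78 for both. Their summed level was 4571 to 5499.8 CPM in PBS.AIR, 2849 to 4157 in PBS.CS, 1327 to 2535 in HDM.AIR and 2214 to 3713 in HDM.CS. Endothelial genes gave 11 of 12 and a median of 1.06, and alveolar type I genes 10 of 11 and 0.68. The summed endothelial level was 3743 to 4539 CPM in PBS.AIR, 2718 to 3558 in PBS.CS, 835 to 2473 in HDM.AIR and 2008 to 3247 in HDM.CS. For alveolar type I cells it was 9763 to 11297, 7545 to 9657, 3518 to 6369 and 6544 to 7811 CPM in the same order. HDM.AIR lay below all other groups for alveolar type I cells and overlapped with HDM.CS for the other lists, and smoke added to HDM gave a positive median, of 0.75, 0.66 and 0.70. Alveolar type II genes went the other way, with 6 of 12 below and none above, and 1 of 9 smooth muscle genes was above. The part of cell makeup in these levels was not tested. Among other sources, genes below and above were 4 and 2 of 8 for club cells, 2 and 1 of 11 for ciliated cells, 3 and 1 of 10 for airway tissue, 1 and 3 of 11 for mast cells and basophils, 0 and 2 of 6 for mesothelium and 0 and 1 of 8 for red blood cells. They were 0 and 3 of 9 for cardiac muscle, 0 and 0 of 6 for skeletal muscle, 1 and 1 of 6 for adipose tissue, 1 and 0 of 5 for thymocytes and 1 and 0 of 3 for squamous epithelium. The skeletal muscle count depended on the fit, with 6 of 6 below in edgeR and with the code set block described below. The summed level of that list was 4252 CPM in the highest HDM.AIR library, against a group median of 4.91 CPM. Over all genes tested the shares were 22.2% below and 20.6% above.

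Single genes of vessel and matrix followed. Flt1, a receptor of vascular endothelial growth factor that stands in the list of alternatively activated macrophages, was 218, 304 and 355 CPM in PBS.AIR, 113.8, 199.8 and 230.3 in PBS.CS, 57.4, 106.7 and 173.7 in HDM.AIR, and 100.98, 159.7 and 207 in HDM.CS, with 1.1996 (SE 0.22, adjusted p = 2.39e-05). Hpgd, the enzyme that inactivates prostaglandins (chr8:56294585-56321043), was 476, 636 and 754 CPM in PBS.AIR, 324, 381 and 438 in PBS.CS, 49.4, 147.98 and 332 in HDM.AIR, and 186.6, 307 and 413 in HDM.CS. HDM.AIR spanned a wide range and overlapped with HDM.CS, and the interaction was 1.88 (SE 0.33, adjusted p = 1.66e-05). Timp3, an inhibitor of metalloproteinases, was above at 0.80 (SE 0.18, adjusted p = 3.11e-04). Of the matrix proteases and inhibitors, 17 of 24 were below and 3 above, against 22.2% and 20.6% over all genes. Collagen and matrix genes split, with 5 below and 6 above of 29, shares near those over all genes, and a median of -0.059. Col12a1, a fibril-associated collagen, was above at 1.68 (SE 0.24, adjusted p = 5.58e-07), and Col15a1, a basement membrane collagen, below at -1.37 (SE 0.27, adjusted p = 6.23e-05).

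Lipid mediator genes had 10 of 20 below, led by Tbxas1, thromboxane synthase, at -1.60 (SE 0.13, adjusted p = 4.60e-12), and 3 above, led by Hpgd. Over all genes 22.2% were below and 20.6% above, for this list and the next ones. Cholesterol and fatty acid synthesis had 8 of 23 below and none above, with Dhcr7, the last enzyme of cholesterol synthesis, at -0.84 (SE 0.13, adjusted p = 2.61e-06). The glucocorticoid receptor and its targets gave 3 of 16 below (18.75%) and 7 above (43.75%), against 22.2% and 20.6% over all genes. Nr3c1, the receptor itself, was 245, 277 and 326 CPM in PBS.AIR, 171.3, 208 and 237 in PBS.CS, 143.1, 171.1 and 222 in HDM.AIR, and 166.9, 182.7 and 217 in HDM.CS. PBS.AIR lay above the other groups, and the interaction was 0.55 (SE 0.098, adjusted p = 1.49e-05). Mt2, a metallothionein induced by glucocorticoids and metals, was below at -1.51 (SE 0.36, adjusted p = 7.67e-04). Clock genes gave 3 of 18 below and 2 above, shares under the 22.2% and 20.6% over all genes. Among them were Bhlhe41, a repressor, at -1.25 (adjusted p = 1.38e-07) and Cry2, a core repressor, at 0.68 (adjusted p = 4.45e-05). Times of death were not used here.

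In the airways of the same exposure groups, 40 libraries without DEX gave 1761 of 17548 genes (10%) below and 1049 (5.98%) above the additive expectation. Of the 7186 genes called in parenchyma and tested in airway, 6721 (93.5%) had an interaction of the same sign there, and 2429 (33.8%) were called in the same direction, which was 87.6% of the 2774 called in airway. Pearson's r of the interaction across 16748 genes was 0.80, a description over genes that are not independent replicates, and some airway and parenchyma libraries may come from the same mice. The median airway interaction was -0.38 in genes below expectation in parenchyma, where it was -0.70, and 0.25 against 0.53 in genes above. The difference between tissues itself passed the test in 37 of 17837 genes (0.207%) with limma, 35 of them lower in parenchyma, while 2084 had an unadjusted p-value under 0.05. This test took all libraries as separate, so any sharing of mice between tissues was not modelled. edgeR called 0.746% lower and 0.028% higher, against 0.196% and 0.0112% with limma. Without X173, 60 genes were lower in parenchyma and 1 was higher with limma, and 36 of the 37 calls remained.

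The 3 smallest p-values for a lower interaction in parenchyma were those of Pigr, Hal and Abcc8. Pigr had -3.48 in parenchyma and -1.22 in airway, a difference of -2.23 (SE 0.35, adjusted p = 1.79e-04). Hal, the histidine-degrading enzyme, had -3.87 and -1.03 (adjusted p of the difference 4.13e-04). Abcc8, the sulfonylurea receptor subunit of potassium channels, had -2.90 and 0.084 (adjusted p of the difference 5.99e-04). C3, Lemd1, Ccl20 and Alpk2 also had a lower interaction in parenchyma. Higher in parenchyma were A930012L18Rik, an antisense transcript whose reads cannot be told from those of its partner gene without strand, at 2.10 against -0.088, and Sp6, a zinc finger factor, at 0.75 against -0.24. Sp6 lost this call without X173 (adjusted p = 0.0676). Mmp12, Trpc6 and Cxcl13 did not pass this test (adjusted p = 0.508, 0.311 and 0.482).

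In parenchyma of mice of the same 4 exposures that received DEX during week 11, again 40 libraries, 1276 of 16650 genes (7.66%) were below and 1317 (7.91%) above the additive expectation. Of the 7117 genes called without DEX and tested with it, 5855 (82.3%) had the same sign and 1937 (27.2%) were called in the same direction, 74.8% of the 2588 called with DEX. Pearson's r across 16518 genes was 0.67. The interaction differed between mice without and with DEX in 1280 of 17226 genes (7.43%), 598 lower without DEX (3.47%) and 682 higher (3.96%). Without X173, the PBS.CS library whose marker ratio lay within the airway range, 570 were lower and 383 higher, and 913 of the 1280 calls remained. These libraries have their own controls, which also received DEX.

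For neutrophil chemokines and granule genes, 4 of 21 members were below and 1 above expectation with DEX, with a median of -0.14 against -1.44 without it, and the difference was called in 10 of 21, all lower without DEX. S100a8 went from -1.55 to 0.65 (adjusted p of the difference 0.00607) and Lcn2 from -3.89 to -1.67 (0.00401). Of the lipid-laden macrophage genes the difference was called in 10 of 24, all lower without DEX. Ctsk went from -2.76 to -0.76 (0.00142) and Gpnmb from -2.72 to -0.80 (0.00475), while Mmp12 had -4.17 and -3.31 and did not pass the test of the difference (0.304). Cell cycle genes had 0 of 26 below and none above with DEX, a median of -0.22 against -1.47, and a called difference in 3 of 26.

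The T cell list had 12 of 27 below with DEX and the MHC class II and dendritic cell list 11 of 21, and the difference was called in 1 and 2 members. In the structural lists, alveolar fibroblast genes had 2 of 9 above with DEX and a called difference in 7, higher without DEX, while endothelial and alveolar type I genes had 10 of 12 and 8 of 11 above and 2 and 0 called differences in that direction, and 1 alveolar type I gene was called lower without DEX. Leaving out X173 gave called differences in 9 of 21 neutrophil, 10 of 24 lipid-laden macrophage, 2 of 26 cell cycle, 6 of 9 alveolar fibroblast and 0 of 12 endothelial genes. The smallest p-values for a lower interaction without DEX were those of Clec5a, a myeloid activating lectin, Olr1, a scavenger receptor of oxidized lipoprotein, and Hal. Clec5a had -3.32 without and -0.72 with DEX (2.04e-05), Olr1 -2.17 and -0.37 (1.42e-05), and Hal -3.87 and -1.18 (1.61e-05). Those for a higher interaction were Irf2bp2, a transcriptional corepressor, Zfp185, a LIM domain protein, and Cnksr3, a scaffold of sodium channel regulation, at 0.48 and -0.22 (0.00127), 0.63 and 0.019 (0.00169) and 0.67 and -0.029 (0.00169). Slc6a20a, Lemd1 and Trpc6 had -2.38, -4.44 and 0.94 with DEX, and their difference was not called.

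**Figure D5:**
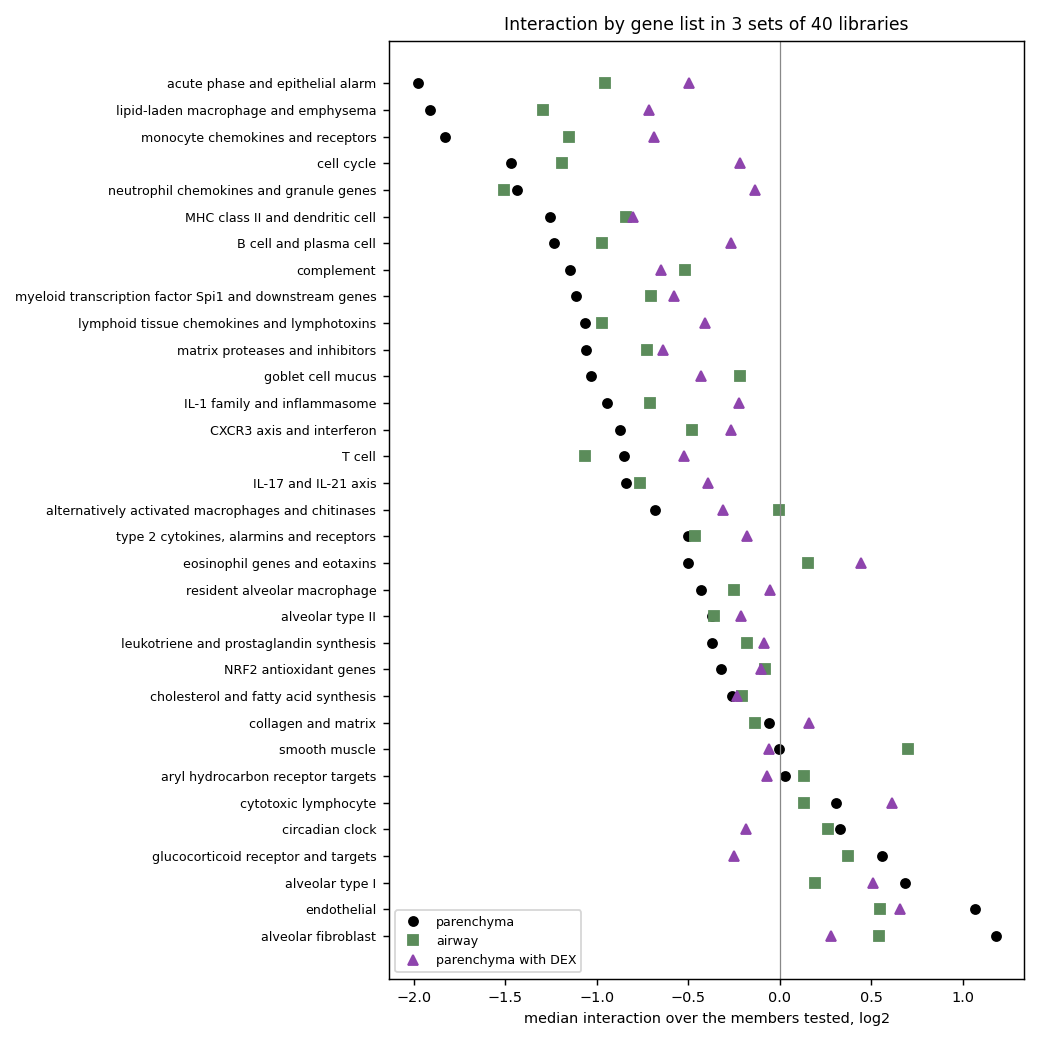
Median log2 interaction over the tested members of each gene list in parenchyma without DEX, in airway without DEX and in parenchyma with DEX, from 40 libraries each. Cell cycle and neutrophil medians are near -1.47 and -1.44 in parenchyma and -0.22 and -0.14 with DEX, and those of the structural lists at the bottom are positive in all 3.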

How the data were processed

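RNA-seq counts of 40 parenchyma libraries without DEX were compared, with 40 airway libraries and 40 parenchyma libraries with DEX as further sets. The authors sequenced single reads of 100 bases, and the submitters' processing notes name bcl2fastq 2.20.0.422, STAR 2.5.1b, RSEM 1.2.31, kallisto 0.44.0 and mm10. The authors deposited estimated counts per gene, not scaled for library size or length. Which quantifier made them is not given in the sources used here. Fractional values made up 20.3% of those above 0 and were rounded. Symbols came from GENCODE M21 (GRCm38) by identifier without version, which matched 42462 of 43346 identifiers, 23106 with the same version. Such quantifiers divide reads between near-identical genes, so values of close copies are uncertain.

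Libraries were grouped by their labels. Genes were kept if 9 or more libraries reached 0.361 CPM, the equivalent of 10 counts at median depth. The interaction was fitted by limma-voom (limma 3.58.1, R 4.3.3) on TMM-scaled counts (edgeR 4.0.16), with 1 mean per group and Benjamini-Hochberg adjustment over all kept genes. Differences between tissues and between mice without and with DEX were tested as 3-way terms in fits of 80 libraries. CPM is scaled by TMM. The fit was repeated with quasi-likelihood in edgeR, with DESeq2 1.42.0, with the latter's size factors, other filters, larger fits, sample weights, a code set block, unlogged CPM and without each library. The pipeline was tested on simulated data. No pair of libraries in a group agreed within sampling noise. The labels do not say that each library is a separate mouse, so p-values measure the spread between libraries.

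The 28 lists of functions and 16 of cell sources, with 681 genes in all, and the rule for the 87 genes named were chosen with earlier results of these data known. The rule takes the 8 smallest p-values and 4 largest interactions in each direction (mean of at least 1 CPM in a group), the smallest p of each function list in each direction, 17 fixed genes and the 3 smallest p-values of each difference in each direction. The result of 1 of these genes is not reported here. Figures were drawn with matplotlib 3.10.9. All intervals cover the spread between libraries only.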

Additional observations from a re-analysis of the deposited data

Results flagged for a closer look

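The highest or lowest library of a group of 10 stood apart by Dixon's criterion (a gap over 0.466 of the range) in 38 of 348 groups of the named genes' CPM, in 35 of them at the high end. For independent normal values, chance would flag about 1 in 20 groups. These values are unlogged and the genes share the same libraries, so that rate does not apply to them. On log2 CPM with 0.5 added, 30 groups met the criterion. Library X126 of PBS.AIR was the extreme one for Awat1 (1.11 CPM, the next 0.170), Ctsk (152.4 CPM, the next 84.8), Gpnmb (88.6 CPM, the next 40.9), Hal (8.11 CPM, the next 4.50), Itgax (124.7 CPM, the next 90.4), Lemd1 (1.80 CPM, the next 0.595), Pigr (217 CPM, the next 110.4), Tbxas1 (17.8 CPM, the next 13.8), Vnn1 (17.2 CPM, the next 5.07), and Zranb3 (10.2 CPM, the next 4.71). Library X173, labelled PBS.CS parenchyma, was the extreme one for Bex4 (29.3 CPM, the next 20.5), Ccl9 (388 CPM, the next 256), Clec7a (565 CPM, the next 373), Ear1 (89.6 CPM, the next 62.4), Mt2 (37.002 CPM, the next 25.1), Siglecf (44.4 CPM, the next 32.5), and Zbtb46 (19.6 CPM, the next 28.7, at the low end). Library X150 of HDM.AIR was the extreme one for Ctsk (1096 CPM, the next 751), Dhcr7 (63.9 CPM, the next 44.6), Gpnmb (883 CPM, the next 528), Hal (100.1 CPM, the next 64.04), Itgax (871 CPM, the next 556), and Muc5ac (29.5 CPM, the next 16.8). Library X94 of PBS.CS was the extreme one for Ctsk (385 CPM, the next 533, at the low end), Lcn2 (701 CPM, the next 1268, at the low end), and Wscd1 (31.7 CPM, the next 26.5). The other extreme libraries were X14 of PBS.CS for Abcc8 (3.62 CPM, the next 2.82), X38 of HDM.CS for Acod1 (44.3 CPM, the next 23.1), X178 of HDM.CS for Ccl11 (32.3 CPM, the next 18.9), X134 of PBS.CS for Clca1 (3.56 CPM, the next 1.76), X50 of HDM.AIR for Cyp1a1 (9.17 CPM, the next 3.78), X90 of HDM.AIR for Cyp4a12b (1.23 CPM, the next 0.280), X78 of HDM.CS for Gm28439 (512 CPM, the next 288), X46 of PBS.AIR for Gstm1 (411 CPM, the next 365), X114 of PBS.CS for Il5 (0.193 CPM, the next 0.114), X166 of PBS.AIR for S100a8 (139.8 CPM, the next 81.3), X130 of HDM.AIR for Sp6 (4.30 CPM, the next 2.90), and X58 of HDM.CS for Sp6 (5.10 CPM, the next 3.31). Among 20 groups of library measures, 3 met the criterion: the TMM factor of X173 in PBS.CS (0.887), the mitochondrial share of X110 in HDM.AIR (2.67%, the next 3.13%) and the first component of X126 in PBS.AIR (-20.6). Without X126 the interactions of Vnn1, Lemd1, Ctsk and Gpnmb were -4.57, -4.43, -2.88 and -2.85, each further from 0 than with it, and without X173 those of Clec7a and Ccl9 were -2.01 and -3.38.

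The interaction differed between parenchyma and airway by the test of the difference, in log2 and parenchyma less airway, for C3 (-1.25), Lemd1 (-2.31), Pigr (-2.23), Hal (-2.82), Abcc8 (-2.96), Ccl20 (-2.32), and Alpk2 (-4.08) at lower values and for A930012L18Rik (2.20) and Sp6 (1.01) at higher ones. Between mice without and with DEX it differed, without less with DEX, for C3 (-0.90), Cd83 (-0.82), Ctsk (-1.98), Hal (-2.67), Slc26a4 (-1.75), Chil1 (-1.15), Tbxas1 (-0.62), Clec5a (-2.58), Ccl9 (-1.87), Ccl22 (-1.75), Olr1 (-1.78), Clec7a (-1.78), Havcr2 (-0.57), Itgax (-1.16), Gpnmb (-1.90), Lcn2 (-2.20), Ptafr (-1.14), Rph3a (-3.04), Cdca8 (-1.52), Cd22 (-0.92), Spi1 (-0.82), and S100a8 (-2.18). Higher without DEX were Wscd1 (0.74), Ankrd29 (0.69), Reck (0.84), A930012L18Rik (1.68), Zfp185 (0.64), Cnksr3 (0.72), Gstm1 (0.63), Irf2bp2 (0.72), Cry2 (0.65), and Arnt (0.38). Without X173, Sp6 no longer passed the test of the difference between tissues (adjusted p = 0.0676), nor Arnt and Cry2 that between mice without and with DEX (0.0533 and 0.0507).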

How the results depend on the processing

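The 7204 calls kept their sign under every alternative on the log2 scale, and 7 changed it on unlogged CPM. Between 71.1% (a CPM of at least 10 in 9 libraries, which left 1946 of them untested) and 98.9% (the code set block) were called again in the same direction. The counts of genes below and above stayed within 1.5 times of 3738 and 3466 throughout, and leaving out 1 library at a time gave 3413 to 3875 and 3276 to 3724. Among genes with an absolute interaction of at least 1, these ranges were 1197 to 1347 below and 576 to 718 above, while the CPM filter of 10, which tested fewer genes, left 556 and 330. The share of calls below expectation ran from 49.5% to 53.98% over the tests, scalings and filters. Of the differences between tissues, edgeR called 0.746% of genes lower and 0.028% higher, against 0.196% and 0.0112% with limma, and without X173, added after seeing the data, limma called 0.337% and 0.00561%. Of the differences between mice without and with DEX, 3.31% of genes were lower and 2.23% higher without X173, against 3.47% and 3.96% with it. The cause of these changes was not tested. Of 792 counts of called members (44 lists, both directions, 9 settings), 61 moved by over 1.5 times, 17 of them with the CPM filter of 10, which tested fewer members, and 14 with 160 libraries. Among counts of 5 or more, 8 moved with that filter, such as cell cycle genes below (11 of 11 tested), and 1 with 160 libraries, T cell genes below (10 against 20). Under settings other than leaving out 1 library, the named genes that follow changed sign or their side of the threshold. Clca1, which was not called, turned positive with edgeR (0.31), DESeq2 (0.26), 80 libraries (0.00105), sample weights (0.016) and without X126 and X173 together, chosen after seeing the data (0.17), and ran from -0.37 to 0.36 over single libraries left out. Cyp1a1 missed the threshold in 5 settings (adjusted p from 0.0627 to 0.171) and without X126 and X173 (0.0643), Gzma with 80 libraries (0.0650), and with 160 libraries so did Cidec (0.250), Cyp4a12b (0.0735), Siglecf (0.0758), Gzma (0.0627) and Muc5ac (0.0528). The groups share no replicate numbers, but codes fall in sets of 20. Of 60 pairs of libraries of a set, 30 deviated together with a correlation over 0.1. The 60 correlations ran from -0.27 to 0.37 with a median of 0.10, and those of set 10 from 0.17 to 0.37. The main fit had no term for the sets, so its p-values do not take such shared deviation into account. With the set as a replicate block 4145 genes were below and 3655 above. Genes with few reads, such as Il5 and Il13, could not be tested at this depth.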
